A study of Mus musculus with 59 samples.

Results

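Interferon-stimulated genes were examined as a readout of any inflammatory signal that serum might carry to indicator cells. The rule took the rows of the deposited table with the symbols Ifit1, Ifit2, Ifit3, Irf7, Irf1, Stat2, Usp18, Isg15 and Rsad2. Of these 9 genes, 8 had a row among the 19613 genes of the table. No row was found for Isg15 under 7 names searched, so Isg15 was not analysed here. The indicator cells were embryoid bodies containing motor neurons, made from a mouse embryonic stem cell line that carries a fluorescent motor neuron reporter, so that each array read a mixture of cell types from 1 line. They were kept for 24 h with serum of pre-symptomatic male mice that were hemizygous carriers of human SOD1 (G93A), or with serum of their male non-carrier littermates, which lack the transgene. Both kinds of mice were F1 offspring of C57BL/6 and SJL, and all 59 cultures received mouse serum, 29 from carriers and 30 from non-carriers, so there was no culture without serum to give a resting level. The labels give 9 weeks for 53 arrays and 10 weeks for the other 6, taken here as the age of the mice. The labels name no batch, so 9 runs were read from common words and consecutive numbering in the array titles. They are called motorneuron, HB9MNs, A to F and 10-week, each held both kinds of serum, and run C with 11 arrays holds more than 1 batch. Single arrays are named by the code in their title, HEMI with a number for carrier and NCAR with a number for non-carrier serum.

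Interferons are secreted proteins that cells release on sensing a virus or foreign nucleic acid. Type I interferons bind the receptor pair Ifnar1 and Ifnar2, whose kinases Jak1 and Tyk2 phosphorylate factors that include Stat2. Bound to Irf9, these enter the nucleus and switch on genes that carry an interferon-stimulated response element (ISRE) in their promoters. Interferon gamma acts mainly through another element, the gamma-activated site (GAS). The Ifit proteins bind viral RNA and limit its translation, Rsad2 (viperin) makes a nucleotide that stops viral polymerases, and Isg15 is a ubiquitin-like protein that is attached to other proteins. Irf7 and Irf1 are transcription factors of interferon and its targets, and Irf7 amplifies the response. Usp18 removes Isg15 from proteins and also binds the receptor, where it damps the signal, and it is itself induced by interferon.

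The promoter stretches whose letters match these elements are shown as background, and whether they act in these cells was not tested. They were read from RefSeq promoters of GRCm38.p6, which cover 250 bases before to 50 bases after each start, and 8 of the 9 genes had one, Usp18 being the exception. Both strands were searched for the ISRE core, GAAA followed after any 2 bases by GAAA again, which reads as TTTC in both places on the other strand, and for the GAS TTCNNNGAA. An ISRE core was found in 5 of these genes, against 3.99% of the 27025 genes with a promoter in that source, and a GAS in 2 of them, against 9.55%. Irf7 had neither in its window, which says only that these letters were not in it. Each stretch runs 5′ to 3′ on the strand of its gene and lies before the transcript start that the promoter source uses, with the matching letters in capitals. For Ifit3 the RefSeq gene record begins farther upstream, so its stretch lies inside that record.
Ifit1, chr19:34640773-34640825, plus strand, ISRE core: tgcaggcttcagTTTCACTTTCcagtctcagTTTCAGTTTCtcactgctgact
Ifit3, chr19:34583361-34583428, plus strand, ISRE core: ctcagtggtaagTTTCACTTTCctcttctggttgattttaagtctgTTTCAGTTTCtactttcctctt
Rsad2, chr12:26456551-26456584, minus strand, ISRE core: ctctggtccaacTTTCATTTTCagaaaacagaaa
Stat2, chr10:128270264-128270297, plus strand, ISRE core: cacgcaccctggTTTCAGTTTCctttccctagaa
Isg15, chr4:156200863-156200908, minus strand, ISRE core: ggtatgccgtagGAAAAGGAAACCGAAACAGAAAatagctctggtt
Irf1, chr11:53769912-53769944, plus strand, GAS: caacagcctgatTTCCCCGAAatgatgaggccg
Ifit2, chr19:34550444-34550473, plus strand, GAS: catgggagcTTCCTGGAAgaatggataaaa
Ifit1 and Ifit3 each held 2 separate ISRE cores, Rsad2 and Stat2 held 1, and Isg15 held 3 that overlap. Matches describe the letters of the window, and binding of a factor was not measured.

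The values are log2 RMA intensities, 1 per gene and array, and they carry no call of presence. Olfactory receptor genes (Olfr, 1032 genes), which these cells were not expected to use, served as a rough guide to the intensity of unused genes, with a median of 4.53 and a 95th percentile of 6.31 on the log2 scale. Over the 59 arrays the mean of Stat2 was 8.11, and 0.484% of the Olfr genes had a mean as high or higher. The means of the other 7 genes lay below that percentile. Irf1 at 6.15 had 7.07% of the Olfr genes at or above it, and Usp18 at 6.11 had 7.36%. For Ifit3 at 5.40 the share was 18.4%, for Irf7 at 5.38 18.7%, for Ifit1 at 5.22 23.6%, for Rsad2 at 5.20 24.1% and for Ifit2 at 5.01 31.0%. Probes differ in brightness, so these shares place the genes only roughly, and small changes in a gene at that level may be changes in background. The median of the Olfr genes in an array was itself highest in the motorneuron run, at 4.84 on average, against run means of 4.45 to 4.61 in the others. One array stood apart. In carrier array HEMI138 of run E, 508 genes lay more than 1 log2 unit from the mean of the other arrays of its run, where the median over arrays was 16 genes and the second highest 69. Precision was limited by the number of arrays.

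No member differed between carrier and non-carrier serum at an adjusted p under 0.05 (0 of 8, limma with the run as a block), where 2.33% of all genes passed, 0.683% higher and 1.65% lower with carrier serum. At an unadjusted p under 0.05 the count was 1 of 8, Ifit2, which was higher, against 20.7% of all genes in either direction and 12% higher. The carrier minus non-carrier change was positive in 5 of the 8 genes and its median was 0.042 log2 units, beside a median of 0.0157 and 61.1% positive over all genes. Among the Olfr genes the median change was 0.0601 with 80.2% positive. Arrays read bulk RNA, in which fewer cells of a type and less RNA per cell cannot be told apart.

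Of the antiviral effectors, Ifit2 came nearest to a call. Its log2 intensity was 4.68 at the lowest, 5.06 at the median and 5.75 at the highest with carrier serum, and 4.61, 4.95 and 5.20 with non-carrier serum. The groups overlapped over most of their range, and the highest value was that of carrier array HEMI138 of run E. Carrier arrays averaged 5.07 ± 0.22 (SD, n = 29) and non-carrier arrays 4.94 ± 0.154 (SD, n = 30). The change within runs was 0.133 ± 0.0443 log2 units (SE), with a 95% confidence interval of 0.0437 to 0.221 and an adjusted p of 0.089 in limma. The run means were higher with carrier serum in 8 of 9 runs, by up to 0.359 in the 10-week run, and lower by 0.0501 in run A. In the 10-week run the carrier arrays lay between 5.10 and 5.39 and the non-carrier arrays between 4.81 and 4.93. They did not overlap there, and 3 runs in all lacked overlap for Ifit2. The share of all genes without overlap was not counted. Without array HEMI138 the change was 0.109 with an adjusted p of 0.13. It shrank to 0.0752 after quantile normalization and to 0.0835 with the Olfr median of each array as a covariate, and in neither was it called.

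Ifit1, Ifit3 and Rsad2, the other effectors, showed no serum change that passed. Ifit1 ranged from 4.26 through a median of 5.19 to 6.20 with carrier serum and from 4.52 through 5.25 to 6.11 with non-carrier serum, and its change was -0.0436 with a 95% confidence interval of -0.207 to 0.12. Ifit3 ranged from 4.59 through 5.40 to 6.49 with carrier and from 4.38 through 5.38 to 6.30 with non-carrier serum. Its change was -0.0138, with an interval of -0.209 to 0.181, the widest among the 8 genes. The differences of its runs went both ways, from -0.758 in run E to 0.346 in the motorneuron run, and the sera did not overlap in 2 runs. In HB9MNs the carrier arrays lay between 5.56 and 5.79 and the non-carrier arrays between 5.36 and 5.41. In run E the carrier arrays read 4.93, 4.59 and 4.70 and the non-carrier arrays 5.89, 5.40 and 5.20. Runs without overlap numbered 3 for Ifit2 and Usp18 and 2 for Irf1. There was 1 for Ifit1, Irf7 and Rsad2, and 0 for Stat2. With few arrays of each serum in a run such gaps can arise by chance, and their share over all genes was not counted. With run E left out, the change of Ifit3 was 0.0711. Rsad2 ranged from 4.93 through 5.21 to 5.60 with carrier and from 4.82 through 5.15 to 5.73 with non-carrier serum, with a change of 0.0414 and an interval of -0.0426 to 0.125. Its run differences went both ways, from -0.202 in run C to 0.349 in run F.

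The transcription factors differed in how closely a change could be bounded. Stat2, the one member well above the level of the Olfr genes, ranged from 7.55 through 8.10 to 8.53 with carrier and from 7.46 through 8.09 to 8.60 with non-carrier serum. Its change was -0.0021 ± 0.0218 (SE), and the interval of -0.0459 to 0.0417 was the narrowest among the members. Irf7 ranged from 4.98 through 5.37 to 6.22 and from 4.92 through 5.32 to 5.93 in the same order. Its change was 0.076 with an interval of -0.00512 to 0.157 and a limma adjusted p of 0.271, and carrier means were higher in 7 of 9 runs. Irf1 ranged from 5.68 through 6.15 to 6.71 with carrier and from 5.92 through 6.09 to 6.55 with non-carrier serum, with a change of 0.043 and an interval of -0.032 to 0.118. Usp18, the feedback inhibitor, ranged from 5.64 through 6.10 to 7.35 with carrier and from 5.77 through 6.05 to 6.47 with non-carrier serum. Its change was 0.0665 with an interval of -0.0424 to 0.175, and the highest carrier value was 1 array of run B described further on.

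**Figure D1:**
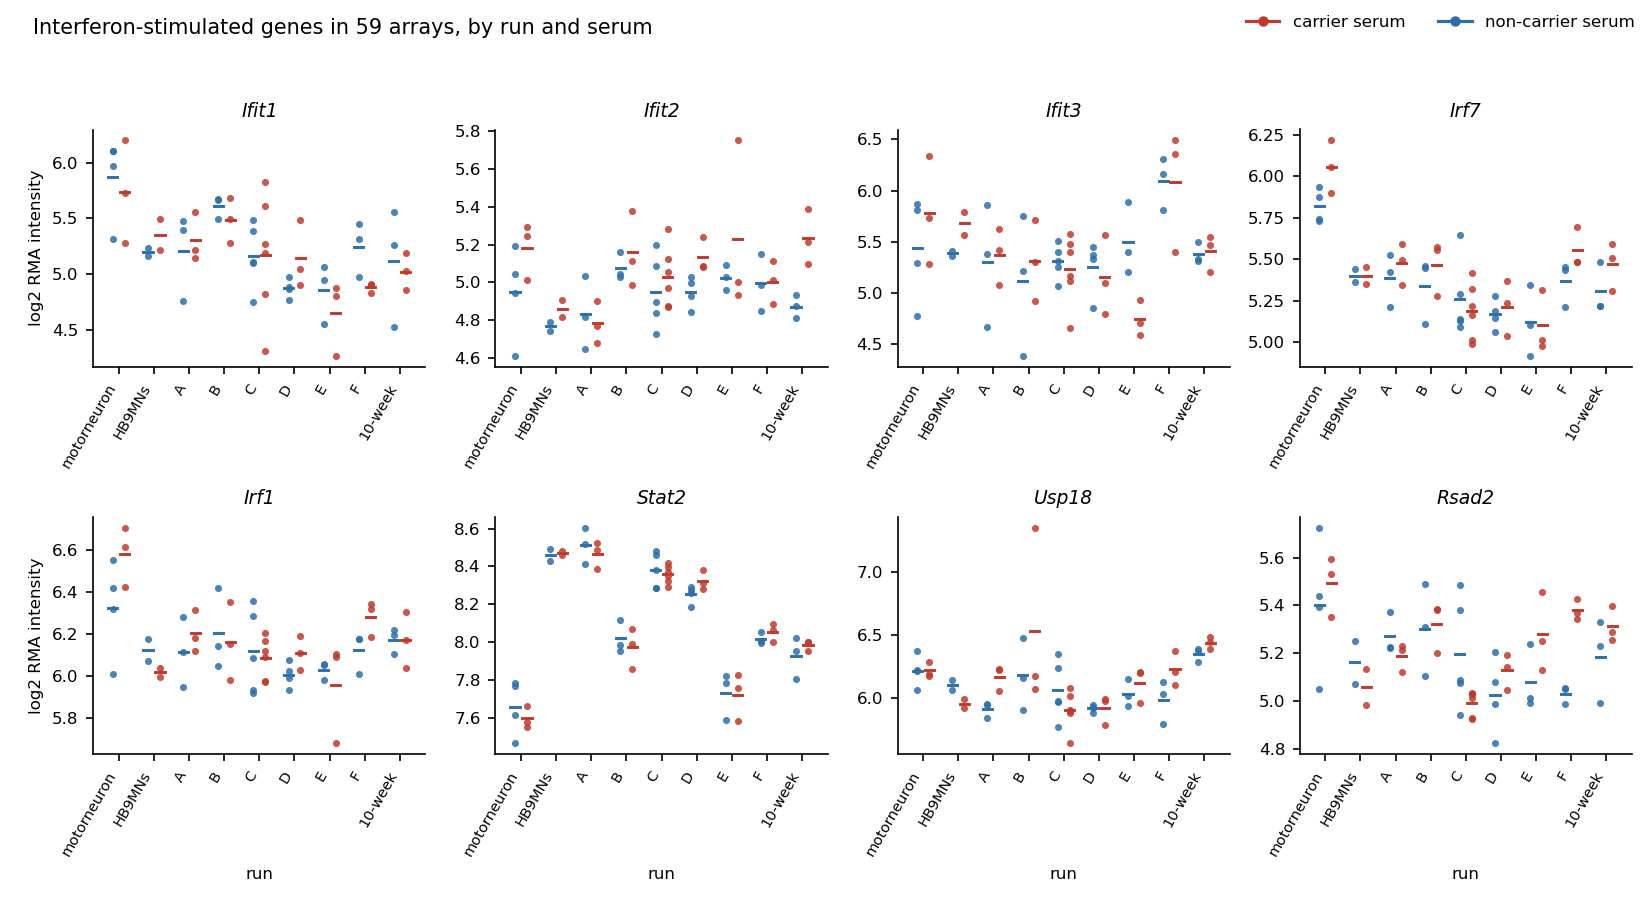
Log2 RMA intensity of the 8 measured interferon-stimulated genes (vertical axes, which differ in scale between panels) in each of the 9 runs (horizontal axes). Each point is 1 array, red with carrier and blue with non-carrier serum, and bars are means of a run and serum. Red and blue overlap for most genes and runs, Stat2 moves between runs from 7.63 to 8.49, and 1 carrier array of run B stands at 7.35 for Usp18.

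These calls depended on how variation between the cultures was handled. The methods of the study corrected for batches with 4 motor neuron genes, Olig2, Mnx1, Isl1 and Lhx3, in a model fitted on non-carrier arrays. The labels do not mark those arrays, so that correction was not repeated here. Instead the 4 genes were entered as covariates beside the run, although they were measured after serum exposure and could follow it. Isl1 changed by 0.0535 (limma adjusted p = 0.114) and Mnx1 by -0.0349 (0.588) with carrier serum. Olig2 was not called, but had the smallest p of 7 progenitor markers, 2 of which passed in limma at an unadjusted p under 0.05. The change of Lhx3 is not given here. With these covariates 3 of the 8 members were called higher with carrier serum. Of all genes, 20.1% were called higher and 31.2% were called in either direction. Ifit2 then changed by 0.164 with a limma adjusted p of 0.0163, Irf1 by 0.108 with 0.032, and Rsad2 by 0.165 with 0.0051. With arrays weighted by their quality, Ifit2 alone among the members was called, at 0.122 with a limma adjusted p of 0.0217, where 14.3% of all genes were called and 6.95% were called higher.

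**Figure D2:**
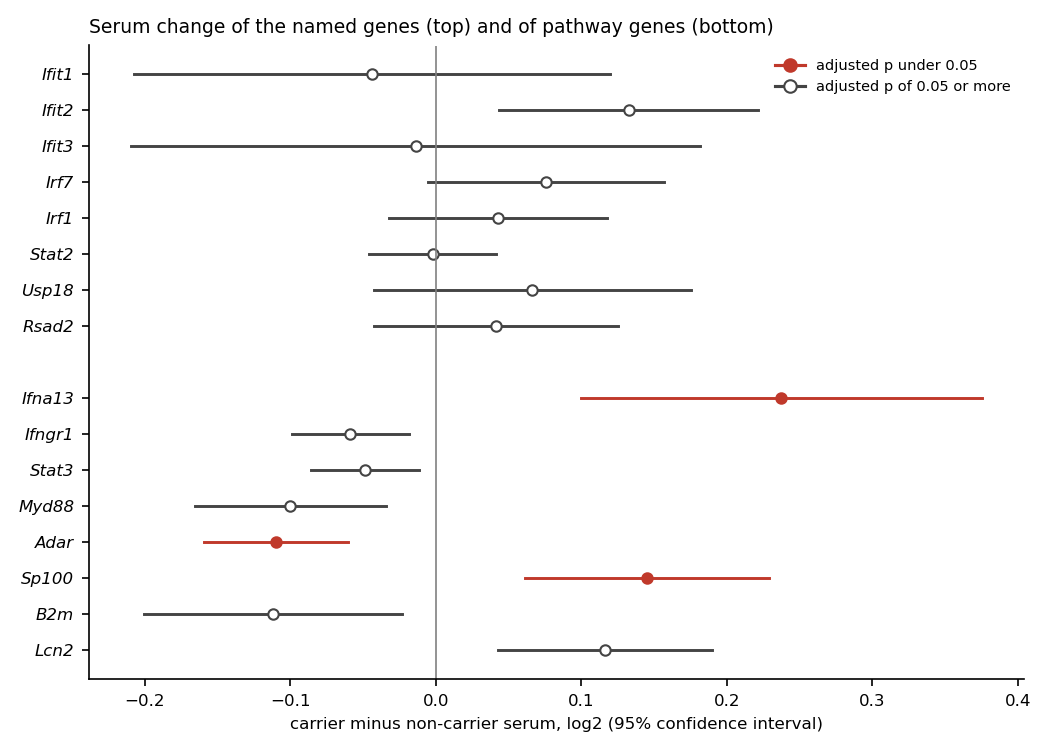
Carrier minus non-carrier change in log2 units (horizontal axis) of the 8 members (top) and, for each pathway list, of its gene with the smallest p and any gene called (bottom). Points are limma estimates with the run as a block, lines are 95% confidence intervals, and filled red marks an adjusted p under 0.05. No member is filled, Ifit2 at 0.133 lies farthest from 0 among them, and Ifna13, Sp100 and Adar are filled.

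The level of each member also differed between the runs. All 8 members passed the limma F test of the run, as did 94% of all genes. The run accounted for 94.0% of the variance of Stat2, 70.4% of that of Irf7 and 50.5% of that of Ifit1, and for 44.8% with Irf1, 38.9% with Usp18, 37.8% with Rsad2, 37.4% with Ifit3 and 24.9% with Ifit2. The median over all genes was 62.5%. Serum, entered after the run, accounted for 11.3% of the total variance of Ifit2 and for at most 1.94% of that of any other member.

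Stat2 was highest in run A at 8.49 and HB9MNs at 8.46, followed by C at 8.37 and D at 8.28, then F at 8.04, B at 8.0, 10-week at 7.96, E at 7.73 and motorneuron at 7.63. Of the 8 steps between neighbours in this order, 2 were called in limma. D exceeded F by 0.249 with an adjusted p of 3.02e-05, where 33.7% of all genes differed between these runs, and 10-week exceeded E by 0.229 with an adjusted p of 0.000157, where 40.4% did. The arrays of run A, from 8.39 to 8.60, and those of the motorneuron run, from 7.46 to 7.78, did not overlap, and 70.2% of all genes differed between these runs.

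Irf7, Irf1, Ifit1 and Rsad2 had their highest means in the motorneuron run, where Stat2 had its lowest. Irf7 there read 6.22, 6.05 and 5.90 with carrier serum and 5.73, 5.93, 5.88 and 5.74 with non-carrier serum. Its mean of 5.92 exceeded that of run F, next in order at 5.46, by 0.46 with a limma adjusted p of 5.57e-06, and 69.9% of all genes differed between these runs. The other 7 steps of Irf7, from run F to run E at 5.11, were not called. Irf1 was 6.43 in the motorneuron run, 0.233 above run F with a limma adjusted p of 0.00777, and between 5.99 and 6.20 elsewhere with no step called. Ifit1 fell from 5.82 in the motorneuron run through 5.55 in run B to 4.75 in run E without a called step. Rsad2 lay between 5.07 in run D and 5.44 in the motorneuron run, again without a called step. The Olfr median was also highest in the motorneuron run, and its part in these values was not tested. After quantile normalization the run F test of Irf1 (adjusted p = 0.395) and Rsad2 (adjusted p = 0.506) no longer passed in limma.

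The remaining members had other orders. Ifit3 was highest in run F at 6.09, 0.503 above the motorneuron run with a limma adjusted p of 0.0281, and its 6 arrays there read 5.40, 6.35 and 6.49 with carrier and 5.81, 6.16 and 6.30 with non-carrier serum. Below run F, the means of Ifit3 lay between 5.12 and 5.58 with no step called. Usp18 was highest in the 10-week run at 6.39, where all arrays lay close together, and in run B at 6.36, where 1 array stood alone. Its lowest mean was 5.92 in run D. In the 10-week run age and run cannot be told apart. Ifit2 lay between 4.81 in run A and 5.13 in run E, with no step called. Neighbours in these orders were not called different except at the steps named.

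The serum change was not shown to differ between runs for any member. In the limma F test of the run by serum interaction 0 of 8 members passed, where 0.127% of all genes did. At an unadjusted p under 0.05 only Rsad2 did (p = 0.0291, adjusted p = 0.56), against 7.94% of all genes.

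To ask whether the members were high in the same cultures, covariation was examined after the mean of each run and serum group was removed. Run C, which holds more than 1 batch, was kept as 1 run in all correlations here and below. Differences between its batches may therefore remain in the deviations, and the permutations do not account for them. Correlations with run C parted were not computed. Over the 59 arrays, 36 relations were computed, 28 between members and 8 with the Olfr median, with 100000 permutations within run and serum groups. Of the 28 pairs of members, 20 correlated positively, the median Pearson's r was 0.129, and 2 pairs passed the adjustment. Irf7 and Irf1 had r = 0.553 (permutation p = 0.00026, adjusted p = 0.00468) and Spearman's rho = 0.544 (p = 0.0003, adjusted p = 0.00456). Without the 2 arrays farthest from the median of Irf7, r was 0.509. Within runs, r of this pair was between 0.351 and 0.786 in 7 of the runs, -0.0919 in run F and -0.864 in HB9MNs with its 4 arrays. Both genes also followed the Olfr median, Irf7 with r = 0.673 (permutation p = 5.0e-05, adjusted p = 0.0018) and rho = 0.684 (p = 3.0e-05, adjusted p = 0.00108), and Irf1 with r = 0.571 (p = 0.00079, adjusted p = 0.00948) and rho = 0.552 (p = 0.00038, adjusted p = 0.00456). Leaving out the 2 farthest arrays gave r = 0.64 for Irf7 and r = 0.546 for Irf1. In single runs the r of Irf7 with the Olfr median was between 0.52 and 0.861, and that of Irf1 between -0.555 in run F and 0.945 in run B. With the Olfr median removed, the r of Irf7 and Irf1 was 0.278, and after quantile normalization it was 0.099 and not called (adjusted p = 0.781), nor was it called with array medians removed, at 0.421 (adjusted p = 0.137).

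**Figure D3:**
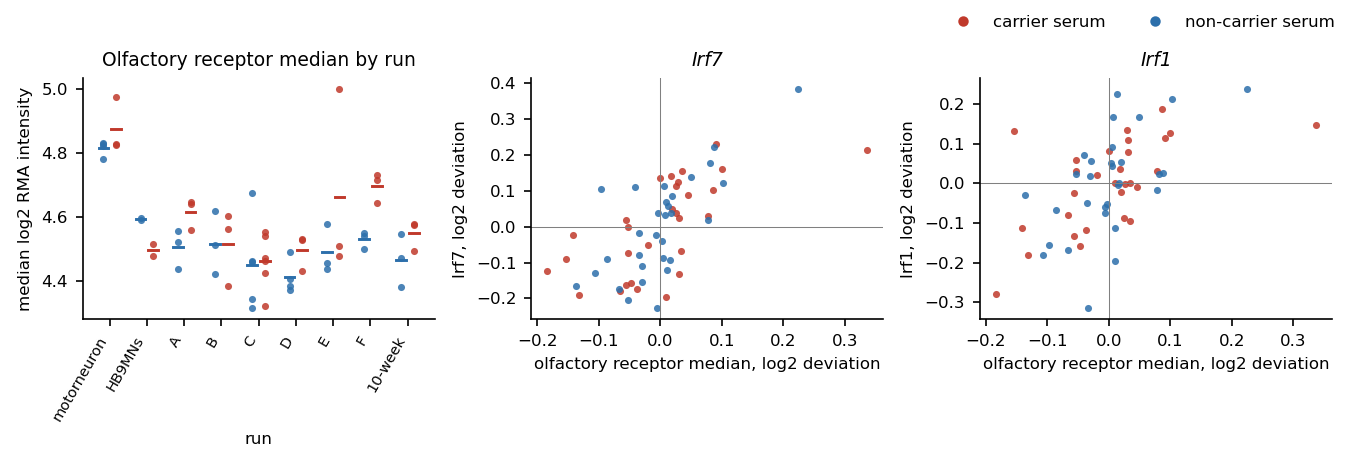
Left, median log2 RMA intensity of the olfactory receptor genes in each array by run, red with carrier and blue with non-carrier serum, bars being means. Middle and right, deviations of Irf7 and Irf1 from the mean of their run and serum group (vertical, log2 units) against those of the olfactory receptor median (horizontal, log2 units), 1 point per array. The motorneuron run is highest at 4.84, and both genes rise along the horizontal axis, with r = 0.673 and r = 0.571.

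Ifit1 and Stat2 were the other pair called, with r = 0.444 (permutation p = 0.00415, adjusted p = 0.0373), but rho = 0.404 was not (p = 0.0105, adjusted p = 0.0946). Without the 2 arrays farthest from the median of Ifit1, r was 0.498, and in single runs it was between -0.539 in run F and 0.923 in run E. This call was lost after quantile normalization, after removal of array medians and with the 4 motor neuron genes removed. Ifit2 correlated with the Olfr median at r = 0.489 (permutation p = 0.0437, adjusted p = 0.18), and at 0.199 without array HEMI138. No pair among the Ifit genes was called. Ifit1 and Ifit2 had r = -0.121, Ifit1 and Ifit3 r = -0.264 and Ifit2 and Ifit3 r = -0.161. Without array HEMI138, Ifit1 and Ifit2 had r = 0.00535. Usp18 had r between -0.23 and 0.272 with the other members.

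Genes whose deviations were most like those of each member were then listed by Pearson's r over the 59 arrays and the other 19612 genes, as a description. Ifit1 was nearest to Abtb1 (r = 0.643), Tyro3 and Bok. Ifit2 was nearest to Kir3dl2 (r = 0.712), Gtpbp1, a GTP-binding protein known to be induced by interferon gamma, and Slco6b1. Ifit3 had its nearest genes at low values, Ptgdr (r = 0.551), Olfr482 and Clec4g. Irf7 lay nearest to Amtn (r = 0.745), Cr2 and Gucy2c, and Irf1 to F5 (r = 0.829), X2310043J07Rik and Morc1. Stat2 went with Sh2b2 (r = 0.786), Unc13a and Accn4, the second a synaptic vesicle priming protein of neurons. Rsad2 went with Fbxl18 (r = 0.657), Bcl3 and Pi16.

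Usp18 was nearest to Rnf213 (r = 0.81), Oasl2 (r = 0.78) and Ddx58 (r = 0.771), and Irf9 (r = 0.687) came at rank 5 of 19612. All 4 are known interferon targets. Rnf213 is a ubiquitin ligase that acts against microbes, Oasl2 belongs to the oligoadenylate synthetase family, Ddx58 (RIG-I) senses viral RNA, and Irf9 belongs to the factor that drives the response. Irf9, like the group of 4 as a set, was singled out after its values were seen. None of the 4 was called for serum.

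These correlations leaned on carrier array HEMI110 of run B. Usp18 in run B read 7.35 in HEMI110, 6.17 and 6.07 in the other carrier arrays, and 5.91, 6.16 and 6.47 in the non-carrier arrays. HEMI110 was thus far the highest, and the others overlapped between the sera. HEMI110 exceeded the mean of the other 5 arrays by 1.20 for Usp18 and 1.16 for Oasl2, ranks 3 and 4 of all genes by this difference. Rnf213 was higher by 0.827, Ifitm3, which blocks the entry of viruses, by 0.833, Rtp4 by 0.76, Ddx58 by 0.709, Irf9 by 0.645 and Ifit3 by 0.599. For Ifit3, HEMI110 at 5.71 lay below NCAR108 at 5.75, and NCAR109 at 4.38 lowered the mean of the others. Of the other members, Ifit2 was higher by 0.308, Stat2 by 0.0882 and Rsad2 by 0.0847. The remaining 3 members were below the mean of the others, with differences of -0.153 for Irf7, -0.242 for Irf1 and -0.326 for Ifit1. Other known interferon-stimulated genes went both ways. Among those below, also picked after their values were seen, differences were -0.317 for Slfn2, -0.29 for Xaf1, -0.274 for Gbp2 and -0.166 for Oas2. Mx1 at 0.0815 and Mx2 at -0.0298 lay near the mean of the others. Oasl2 read 7.48 in HEMI110, 6.38 and 6.22 in the other carrier arrays and 6.08, 6.28 and 6.64 in the non-carrier arrays. Non-carrier array NCAR109 was next highest of the run for Usp18, Oasl2, Irf9, Ddx58 and Rnf213.

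All of Usp18, Irf9, Oasl2, Ddx58 and Rnf213 were among the 100 genes highest in HEMI110 relative to the others of its run. Counted by list, 7 of the 44 effectors, Oasl2 included, and 2 of the 8 members, Usp18 and Ifit3, were among these 100 of 19613 genes. Ifit3 was not highest of the run in HEMI110. The 4 genes beside Usp18 were picked for a correlation that HEMI110 itself raises, so their standing there is a description of how they were chosen and no separate result. Usp18 was the member by which HEMI110 stood out, so its rank is a description too. Of the 44 effectors, 14 were higher in HEMI110 than in any other array of run B, beside 13% of all genes. Other genes were high there too. Foxf1, Lum and Dcn, known from mesenchymal cells, were higher by 1.0, 0.694 and 0.612. Like Ifitm3 and Rtp4, they were picked after their values were seen. For Dcn, HEMI110 at 7.98 lay below the highest of the others, at 8.02. Over the 59 arrays Foxf1 averaged 5.03 and Lum 4.55, where 30.6% and 49.5% of the Olfr genes had a mean as high or higher. The part of other cell types in this array was not tested. HEMI110 had 20 genes beyond 1 log2 unit, close to the median of 16 over arrays. Without HEMI110 the r with Usp18 was 0.595 for Rnf213, 0.558 for Ddx58, 0.546 for Oasl2 and 0.494 for Irf9, at ranks 2, 4, 6 and 14 of 19612, and Mmp2, a matrix metalloproteinase, came first at 0.599. These 58 arrays are among those by which the 4 genes were picked, so their r is no separate result. Within single runs the r with Oasl2 was between -0.539 in the motorneuron run and 0.998 in run B. It was between -0.702 in the 10-week run and 0.98 in run B for Rnf213. For Irf9 it was between -0.628 in the motorneuron run and 0.999 in HB9MNs. HB9MNs has only 2 arrays of each serum, whose deviations mirror each other, so its r says little. For Ddx58 it was between -0.126 in the 10-week run and 0.995 in run B.

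**Figure D4:**
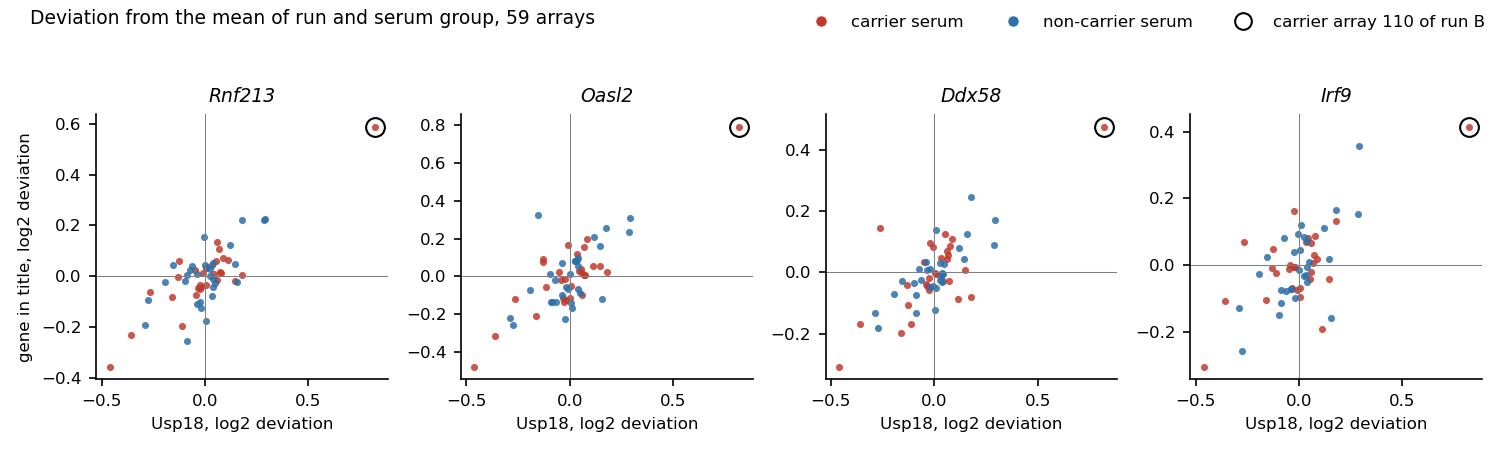
Deviation from the mean of its run and serum group, in log2 units, of 4 genes (vertical axes, which differ in scale) against that of Usp18 (horizontal axes), 1 point per array, red with carrier and blue with non-carrier serum. The circled array, carrier array HEMI110 of run B, is the farthest to the right in every panel. Over the remaining 58 arrays r was from 0.494 for Irf9 to 0.595 for Rnf213, for genes picked by their r over all arrays.

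**Figure D5:**
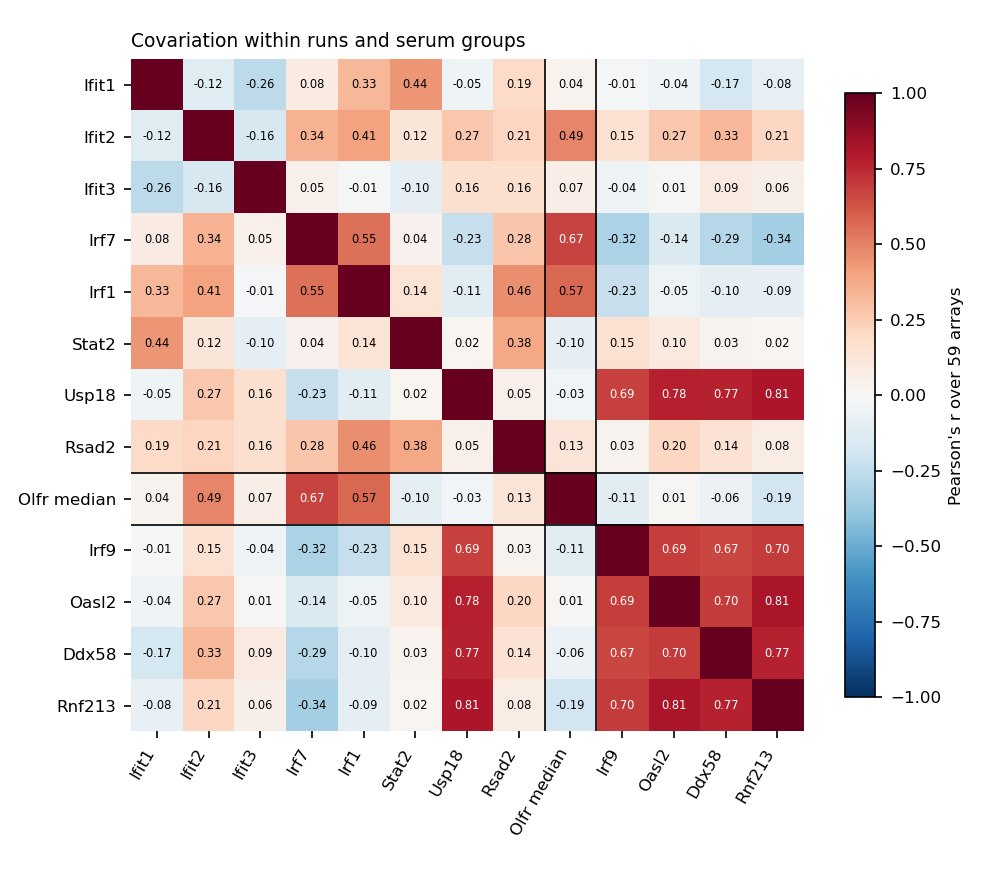
Pearson's r over 59 arrays between deviations from the mean of run and serum group, for the 8 members, the olfactory receptor median and 4 genes near Usp18, written in each cell and coloured from blue (-1) to red (1). Usp18 shares its red block with these 4 genes at r = 0.687 to 0.81, the Ifit genes have r from -0.264 to -0.121 with each other, and Irf7 and Irf1 go with the olfactory receptor median.

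The rest of the pathway was followed in 7 lists of 152 genes, of which 140 were measured. With carrier serum 2 of them rose and 1 fell, 2.14% beside 2.33% of all genes, and 22 of the 140 passed at an unadjusted p under 0.05, where 20.7% of all genes did. Of 19 interferon ligands, 1 was called. Ifna13, a type I interferon, rose by 0.237 ± 0.0686 log2 units (SE, adjusted p = 0.0488 in limma). It ranged from 5.16 through a median of 5.75 to 6.38 with carrier and from 4.40 through 5.52 to 6.14 with non-carrier serum, groups that overlapped. Ifna genes are nearly identical in sequence, so its probes may also read other Ifna genes, and 14.1% of the Olfr genes had a mean as high or higher. The median change of the ligands was 0.0538, and Ifnb1 changed by 0.0359.

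Of 6 interferon receptors and 11 genes of JAK-STAT signalling none was called, with median changes of -0.0226 and 0.0199. The receptor gene Ifngr1, which binds interferon gamma, had the smallest p of its list at -0.0586 (limma adjusted p = 0.0969). Stat3, a factor of the cytokines of the interleukin 6 family, changed by -0.0483 (adjusted p = 0.135) and was lower in each of the 9 runs. Of 17 genes that sense nucleic acids none was called, and Myd88, an adaptor of Toll-like receptors, changed by -0.0999 (adjusted p = 0.0832). The receptor and signalling genes were not dim, since 5 of the 6 receptors and all 11 signalling genes had means above the 95th percentile of the Olfr genes.

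Of 44 other effectors, 1 rose and 1 fell, and the median change was 0.0348. Adar, which edits adenosine in double-stranded RNA, fell by 0.11 on the log2 scale (limma adjusted p = 0.0104). It ranged from 8.23 through 8.57 to 8.76 with carrier and from 8.33 through 8.67 to 8.88 with non-carrier serum, and was lower in 8 of 9 runs. Sp100, a nuclear body protein, rose by 0.145 (limma adjusted p = 0.0469), from a median of 5.03 to 5.18 in groups that overlapped, and 28.2% of the Olfr genes had a mean as high or higher. The study chose Sp100 with Mx1 and Trim56 on its training arrays, which are among these, so its direction is not independent evidence. Mx1 changed by 0.0447 and Trim56 by -0.0183, neither called. The call of Sp100 was lost in 14 of 22 alternatives and that of Ifna13 in 13 of 22, and that of Adar in 5 of 23, with the same direction in each.

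None of the 19 genes of antigen presentation and none of the 24 inflammatory genes of NF-kB and the chemokines was called, with median changes of 0.0216 and 0.0365. B2m, the light chain of the class I molecules, changed by -0.112 (limma adjusted p = 0.147), and Lcn2, an iron-binding protein of inflammation, by 0.117 (adjusted p = 0.0703). Markers of other cells were read beside these lists. Of 14 leukocyte and microglia markers none was called and 5 lay above the 95th percentile of the Olfr genes, and their summed intensity ranged from 897 to 1805 with carrier and from 908 to 1696 with non-carrier serum. C1qb had the smallest p of them, with a change of 0.178 (adjusted p = 0.0946). None of 5 red blood cell and 7 endothelial markers was called, and only 1 of each lay above that percentile. All 6 motor neuron markers did, and 1 of them, the choline transporter Slc5a7, rose by 0.151 (adjusted p = 0.041), whereas Mnx1, which defines motor neurons, changed by -0.0349. None of the progenitor, pluripotent cell or astrocyte and radial glia markers was called. The part of these cells in the values of the members was not tested.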

How the data were processed

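RNA of embryoid bodies was measured on Affymetrix mouse exon arrays in 59 samples. The authors made the deposited intensity values, on a linear scale, with RMA in aroma.affymetrix, took the mean of the exons as the value of a gene and removed outlying arrays beforehand, and the submitters' processing notes also name Affymetrix Expression Console. The scale on which exons were averaged, the genome build and any detection calls are not given in the sources used here. Log2 of the deposited intensities was taken here with no pseudocount and no filter.

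Genes were tested in R 4.3.3 by the moderated linear models of limma 3.58.1, two-sided, with the run as a block and Benjamini-Hochberg adjustment over 19613 genes at 0.05. The run was tested with serum in the model, and the interaction of run and serum with both. Residual correlations were tested with 100000 permutations within run and serum groups, with run C kept as 1 run, and adjusted over 36 relations. The procedure was tested on simulated data. Members and lists were chosen with earlier results of these data known. Genes named were the members, list genes called for serum, the gene of each list with the smallest p, and the 3 genes most like each member, and exceptions are marked. Same-numbered arrays were not treated as pairs. Of 8 same-numbered pairs, 1 had residuals correlating over 0.1, at 0.327. Residuals within a run and serum group depend on each other, so this cannot show whether arrays were paired. The labels do not say whether each array had serum of its own animal or a culture of its own, so p-values measure the spread between these arrays. Alternatives covered blocks, the 4 motor neuron genes as covariates, normalization, filter, pseudocount, variance model, array weights, and each run left out. The rule that arrays HEMI110 and HEMI138 be left out, and the Olfr median as covariate, were added after the data were seen.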

Additional observations from a re-analysis of the deposited data

How the results depend on the processing

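The serum change of Irf7 and Usp18 kept its sign under all 22 alternatives run for them, at 0.0113 to 0.121 and 0.0213 to 0.117, and neither was called in any. Ifit2 stayed positive in all 22, at 0.0752 to 0.164. Of all genes, 2.33% were called for serum as reported. With the 4 motor neuron genes as covariates 31.2% of all genes and 3 members were called, Ifit2 (0.164), Irf1 (0.108) and Rsad2 (0.165), and the uncalled changes of Ifit1 (0.0154), Ifit3 (0.0205) and Stat2 (0.0446) were positive. With array weights 14.3% and 1 member, Ifit2 (0.122), were called, with Ifit3 at 0.0219 and Stat2 at 0.00706, uncalled. Quantile normalization turned Irf1 to -0.000735 and Rsad2 to -0.0187, uncalled. With the run left out of the limma model, 0 genes passed, 805 did before adjustment at 0.05, and Stat2 was 0.017. With the Olfr median as covariate 0.617% and no member were called, with Irf1 at -0.00925 and Stat2 at 0.00112. Leaving out HEMI138 gave 0.0033 for Ifit3 and 0.00375 for Stat2, and leaving out HEMI110 as well gave 0.000695 for Stat2. With single runs left out, 0.54% (without run D) to 8.16% (without run C) of all genes and no member were called; the share was also at least 1.5 times lower without run A, B, E, F or 10-week. Stat2 then lay between -0.0118 and 0.00539 and Ifit3 between -0.0614 and 0.0711. With dim genes left out only Stat2 of the members was tested. Then 6.68% of the genes were called for serum, 9689 genes and 1 member for the run. The interaction of run and serum was called in 2 genes with the 4 covariates and in 1019 with array weights, none of them members. Of the pairs of members 2 were called, 1 by Spearman's rho, 0 after quantile normalization or removal of array medians, and 3 with the 4 motor neuron genes removed. Same-numbered arrays were also taken as a replicate block, where the labels show only shared numbers. Then 2.62% of all genes and no member were called, and Ifit2 was 0.119. The cause of these differences was not tested. Array number and low signal over background limit what could be detected.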
